A study of Mus musculus with 2 samples.

Results

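The adult globin genes encode the alpha and beta chains of adult haemoglobin. Their counts were examined in RNA from dorsal root ganglion cells that the labels call macrophages. Dorsal root ganglia hold the cell bodies of sensory neurons, next to the spinal cord. A table of 49315 genes was searched for names that start with Hba-a or Hbb-b, leaving out 2 pseudogenes, and 6 genes met this rule. The set was named for 3 of them, Hba-a1, Hbb-bs and Hbb-bt. The rule also takes Hba-a2, which was counted in both libraries and is described with them, and the embryonic genes Hbb-bh1 and Hbb-bh2, which had 0 counts in both.

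There were 2 libraries, 1 per group. The hypoxia library came from mice kept under chronic intermittent hypoxia, in which chamber oxygen cycled between 21% and 8% every 6 min, 10 times per hour, for 8 h a day over 14 days. The normoxia library came from sham-treated mice held at 21% in the same type of chamber. The interval from the last exposure to cell collection was about 18 h. The sources used here do not give strain, sex, age, number of mice or how the cells were isolated. Only the initial letter of its code assigns the hypoxia column to its group. Totals were 2171348 counts for normoxia and 145056 for hypoxia, and 1158 genes were counted in both. With 1 library per group no difference has a replicate check and no p-value was computed. Every 95% interval covers counting error only.

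Haemoglobin is a tetramer of paired alpha and beta chains, each holding 1 haem, and red cell precursors keep the output of the 2 chains nearly equal, since free alpha chains precipitate. In the mouse the alpha genes lie in 1 cluster and the beta genes in another, with embryonic genes and adult genes in each. Globin mRNA persists in reticulocytes, the youngest circulating red cells, after the nucleus is lost. Macrophages take up red cells and break down haem, and haemoglobin has been reported in activated mouse macrophages. In RNA from a mixed sample, fewer cells of a type and less RNA per cell cannot be told apart.

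Positions are from GENCODE M21 on GRCm38, which may differ from the authors' build. Hba-a1 (ENSMUSG00000069919) lies on chromosome 11 at 32283511 to 32284465 on the plus strand, and Hba-a2 (ENSMUSG00000069917) at 32296489 to 32297298. Hbb-bs (ENSMUSG00000052305) lies on chromosome 7 at 103826534 to 103828096 on the minus strand, and Hbb-bt (ENSMUSG00000073940) at 103812524 to 103813996. Each of the 4 has 3 exons, and the counts are per gene over all exons. The paired genes are almost identical in their coding part. Hba-a1 and Hba-a2 differ at 1 of 429 coding bases (C381T, counted from the A of the start codon, Hba-a1 base first). Hbb-bs and Hbb-bt differ at 1 of 444 (C417T, Hbb-bs base first). These stretches of coding sequence in exon 3, written 5′ to 3′ with the differing base in capitals, are all that separates each pair within the coding part.
Hba-a1: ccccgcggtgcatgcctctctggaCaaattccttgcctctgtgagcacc
Hba-a2: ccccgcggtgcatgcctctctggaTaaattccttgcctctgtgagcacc
Hbb-bs: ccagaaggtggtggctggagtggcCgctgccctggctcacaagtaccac
Hbb-bt: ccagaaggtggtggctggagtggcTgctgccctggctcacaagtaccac

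Outside the coding part the pairs differ in a way that bears on the counts. Over the first 74 bases of the 3′ UTR, Hba-a1 and Hba-a2 are the same at 74. Over the first 131 bases of the 3′ UTR, Hbb-bs and Hbb-bt are the same at 46 when compared position by position without gaps. Windows of 100 bases were searched in 141767 GENCODE transcripts. Of 439 windows of the Hba-a1 transcript 100 were found in no other gene, and of 452 windows of Hba-a2 it was 116. Of 529 windows of Hbb-bs 198 were found in no other gene, of which 39 touch the 5′ UTR, 131 touch the 3′ UTR and 28 lie inside the coding part. For Hbb-bt it was 200 of 531, of which 40, 132 and 28. The split between Hbb-bs and Hbb-bt can thus be read mainly at the ends of the mRNA, and that between Hba-a1 and Hba-a2 around a single base. How reads that align to both genes of a pair were counted is not stated, and the coverage along each transcript was not analysed here.

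**Figure D1:**
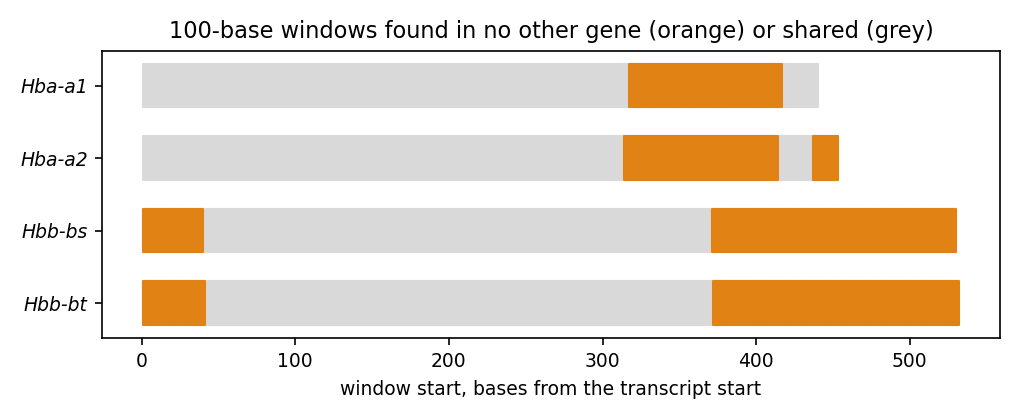
Start positions of 100-base windows along the transcript of each adult globin gene, in bases from the RefSeq start site. Orange windows were found in no other gene (100, 116, 198 and 200 windows from top to bottom) and grey windows are shared. The short orange stretch at the end of Hba-a2 lies where the annotated Hba-a2 transcript runs past the end of the annotated Hba-a1 transcript.

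The start regions of the beta genes, in contrast, differ in their base sequence. The 120 bases before the RefSeq start site of each gene (GRCm38.p6) are shown for Hba-a1, Hbb-bs and Hbb-bt, because the beta genes differed in how their counts compared between libraries. Capitals mark 4 short motifs, searched on both strands. The first is TATAA, the core of the box that positions the start of transcription. The second, CCAAT, is a common element of promoters upstream of that box. The third, CACCC, is the element that the factor Klf1 is known to bind in adult beta globin. The last, GATA, is the core of the sites of GATA factors such as Gata1.
Hba-a1 chr11:32283552-32283671, plus strand: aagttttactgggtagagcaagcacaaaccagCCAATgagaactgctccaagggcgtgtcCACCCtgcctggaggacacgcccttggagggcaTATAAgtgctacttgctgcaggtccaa
Hbb-bs chr7:103827929-103828048, minus strand: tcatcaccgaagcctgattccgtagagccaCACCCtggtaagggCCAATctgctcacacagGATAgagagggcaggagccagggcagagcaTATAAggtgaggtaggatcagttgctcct
Hbb-bt chr7:103813924-103814043, minus strand: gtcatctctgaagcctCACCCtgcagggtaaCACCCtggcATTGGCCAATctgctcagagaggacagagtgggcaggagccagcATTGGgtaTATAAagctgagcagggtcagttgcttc

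All 3 windows hold the first 3 motifs, a set found together in 226 (0.688%) of 32851 RefSeq start windows of the same length. Taken singly, the motif TATAA was in 11.8% of those windows. The CCAAT motif was in 21.3% and the CACCC motif in 31.7% of the windows. The GATA motif was in 29.5% of them. No occurrence was left out for overlap with another. The TATAA motif began 27 to 29 bases before the start in the 3 windows. The Hbb-bt window holds the CACCC motif at 2 places and the CCAAT motif at 3, of which 2 are on the opposite strand, read as ATTGG. The Hbb-bs window holds 1 of each, and it alone of these windows holds GATA. In a gapped alignment 93 of the 120 bases (77.5%) matched between Hbb-bs and Hbb-bt. The windows of Hba-a1 and Hba-a2 are shifted by 3 bases against each other and matched at 117 of the 120 bases. These matches describe the letters of the windows and no binding was measured.

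Globins were the most counted genes of both libraries. Hbb-bs ranked first and Hba-a1 second in each. Counts of Hbb-bs were 88388 under normoxia and 5121 under hypoxia, which is 4.07% (95% interval 4.04 to 4.10) and 3.53% (3.44 to 3.63) of all counts. Hba-a1 had 77183 and 4826 counts, 3.55% (3.53 to 3.58) and 3.33% (3.24 to 3.42). Both shares were slightly lower in hypoxia, with intervals on reads that lie apart.

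The lesser genes of the pairs were counted less. Hba-a2 had 10944 and 725 counts, 0.504% (0.495 to 0.514) in normoxia and 0.500% (0.464 to 0.537) in hypoxia. Its interval in hypoxia spans the normoxia value. Hbb-bt had 17184 and 489 counts, 0.791% (0.780 to 0.803) and 0.337% (0.308 to 0.368), and fell from rank 5 to rank 18 by counts. Of the adult globin genes it was the one whose share differed by more than 2-fold.

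Reads are not independent molecules in these libraries, for which no molecular identifiers are mentioned. A coarse estimate of reads per starting molecule is the median count, in a library, over the genes with 10 or more counts there and 0 in the other library. It was 229 in normoxia and 39 in hypoxia. It assumes that most such genes stem from 1 molecule, which was not tested, and it may not hold for abundant genes. On this estimate Hbb-bs rested on about 386 and 131 molecules, Hba-a1 on 337 and 124, Hba-a2 on 47.8 and 18.6, and Hbb-bt on 75.0 and 12.5. Intervals on molecules below divide the counts by these numbers first. On molecules the shares of Hbb-bs (3.68 to 4.49% and 2.96 to 4.17%) and of Hba-a1 (3.19 to 3.95% and 2.77 to 3.95%) overlapped between libraries. Those of Hbb-bt, at 0.623 to 0.991% and 0.177 to 0.581%, did not.

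**Figure D2:**
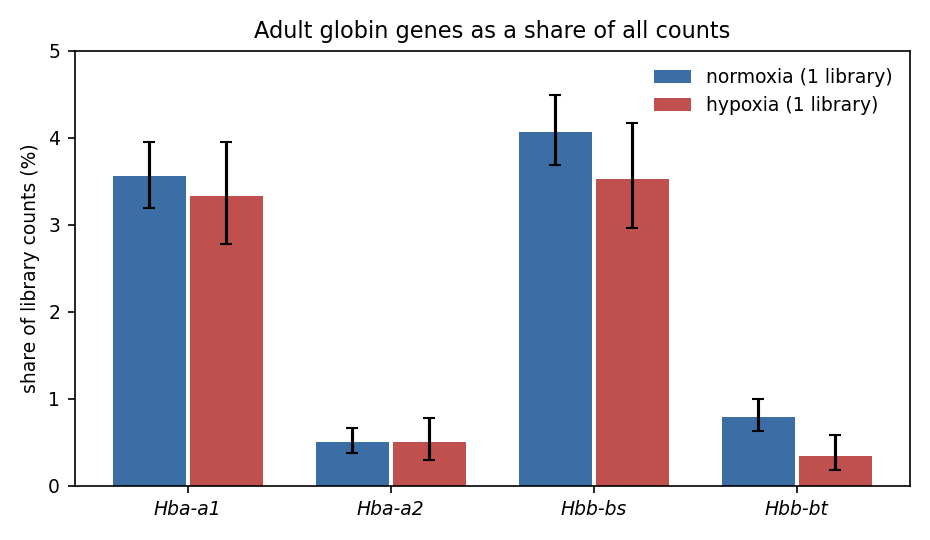
Share of all counts (percent, vertical axis) of each adult globin gene in the normoxia (blue) and hypoxia (red) library, 1 library each. Error bars are 95% intervals on estimated molecules and cover counting error only. Hbb-bs and Hba-a1 stand between 3.33% and 4.07% in both libraries, whereas Hbb-bt stands at 0.791% and 0.337%.

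Summed over the 4 genes, adult globins took 8.92% of the normoxia counts (8.88 to 8.96, or 8.35 to 9.51 on molecules) and 7.69% of the hypoxia counts (7.56 to 7.83, or 6.86 to 8.60). Over the 3 genes without Hba-a2 the shares were 8.42% and 7.19%. The authors' TPM values, which divide by gene length, put the 3 genes at 19.8% and 12.9% of the total. The levels are higher by TPM since globin mRNAs are short, and the difference between libraries is also larger. In TPM Hbb-bs stood at 96969 and 64547, Hba-a1 at 80088 and 57533, Hba-a2 at 13825 and 10522, and Hbb-bt at 20595.5 and 6733. The globins of other stages were nearly absent. Of 13 genes of the globin clusters and their pseudogenes in the table, 5 were counted. The embryonic genes Hba-x, Hbb-y, Hbb-bh1 and Hbb-bh2 and the theta globin gene Hbq1a had 0 counts in both libraries. Apart from the adult genes, the one counted was Hbq1b, a theta globin gene that lies between Hba-a1 and Hba-a2. It had 424 counts in normoxia and 0 in hypoxia. That is 195 CPM in normoxia, where CPM is the count scaled to the library total, and 0 in hypoxia allows up to 20.7 CPM by 3 reads or 807 CPM by 3 estimated molecules. Myoglobin (Mb), cytoglobin (Cygb) and neuroglobin (Ngb), the globins of muscle, connective tissue and neurons, had 0 counts in both.

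The ratio of each gene between libraries depends on the scaling, and most genes were called. A gene was called when its share differed at least 2-fold and the 95% interval on reads excluded 1, among 4215 genes with at least 50 counts over both libraries. With trimmed mean of M values (TMM) scaling 75.7% of all genes were called lower in hypoxia and 11.9% higher, against 71.5% and 16.1% on total counts. TMM moved every log2 ratio by −0.80 relative to total counts. With TMM 2 of the 4 counted adult globin genes were called lower. These were Hbb-bs, at a ratio of 0.497 (0.483 to 0.511 on reads, 0.404 to 0.607 on molecules), and Hbb-bt, at 0.244 (0.223 to 0.267 on reads, 0.123 to 0.447 on molecules). Hba-a1 stood at 0.536 and Hba-a2 at 0.568. On total counts 1 of the 4 was called lower, Hbb-bt, at 0.426 (0.389 to 0.466 on reads, 0.214 to 0.780 on molecules). The other ratios on total counts were 0.867 for Hbb-bs, 0.936 for Hba-a1 and 0.992 for Hba-a2, and on molecules each of these intervals included 1. Most of the genes called lower had 0 counts in the shallower hypoxia library. Among the 1108 genes counted in both libraries, as the 4 globins are, TMM called 27.9% lower and 24.9% higher, with a median log2 ratio of −0.10. On total counts it was 15.1% and 41.1%, with a median of 0.70. With 4 genes, the counts of calls are given as a description beside these shares.

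A closer background is that of genes as deeply counted. Among the 14 genes with at least 10000 counts over both libraries, log2 ratios on total counts ran from −2.02 for mt-Co1 to 2.43 for S100a9, with a median of 0.11. Hbb-bt was the third lowest of the 14, at −1.23. Hbb-bs at −0.21, Hba-a1 at −0.10 and Hba-a2 at −0.01 came next but for Eef1a1, in this order. For the 3 named globins summed the log2 ratio on total counts was −0.23. Among 266 other genes with at least 1000 counts that were counted in both libraries, those nearest to it were Atp5a1 (−0.23), Selenop (−0.26), Smc1a (−0.19), Rpl29 (−0.18) and Crip1 (−0.17). With 2 libraries this likeness is that of a single ratio.

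The balance between globins needs no scaling between libraries. Beta-s took a larger part of the adult beta counts in hypoxia. Hbb-bs made up 83.7% of the Hbb-bs and Hbb-bt counts in normoxia (83.5 to 83.9 on reads, 80.0 to 87.0 on molecules) and 91.3% in hypoxia (90.5 to 92.0 on reads, 85.4 to 95.3 on molecules). There were 5.14 Hbb-bs counts per Hbb-bt count in normoxia and 10.5 in hypoxia. The odds ratio was 2.04 (1.85 to 2.24 on reads, 1.03 to 3.97 on molecules). The shares on molecules overlap slightly, whereas the interval of the odds ratio lies just above 1.

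Measured against the alpha genes, Hbb-bt was again the gene that differed. Hba-a1 held 4.49 counts per Hbb-bt count in normoxia and 9.87 in hypoxia, an odds ratio of 2.20 (2.00 to 2.42 on reads, 1.12 to 4.32 on molecules). Hba-a2 held 0.637 and 1.48, an odds ratio of 2.33 (2.07 to 2.62 on reads, 0.963 to 5.51 on molecules). Against Hbb-bs the odds ratio of Hba-a1 was 1.08 (1.04 to 1.12 on reads, 0.806 to 1.46 on molecules), and that of Hba-a2 was 1.14 (1.05 to 1.24 on reads, 0.624 to 2.11 on molecules). These 4 comparisons share their counts and are not independent of each other or of the beta-s to beta-t comparison. The 12.5 estimated molecules of Hbb-bt in hypoxia limit all those that involve it.

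The alpha share of the counts was higher in hypoxia. Hba-a1 made up 42.2% of the counts of the 3 named genes in normoxia (42.0 to 42.5 on reads, 38.8 to 45.7 on molecules) and 46.2% in hypoxia (45.3 to 47.2 on reads, 40.2 to 52.4 on molecules). The odds ratio was 1.18 (1.13 to 1.22 on reads), with an interval of 0.883 to 1.57 on molecules that includes 1. With Hba-a2 on the alpha side the alpha share was 45.5% (42.1 to 48.9 on molecules) and 49.7% (43.8 to 55.7 on molecules), with an odds ratio of 1.19 (0.894 to 1.56 on molecules). On reads the interval of the change in alpha to beta balance excluded 1, but it treats reads as independent, which they are not. On molecules the change was not detectable at this depth.

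The level of the alpha share, unlike its change, depends on what a count is divided by. Per base of mature mRNA (559 bases for Hba-a1, 563 for Hba-a2, 639 for Hbb-bs and 630 for Hbb-bt) there were 0.951 alpha per beta in normoxia and 1.13 in hypoxia. By the authors' TPM values of the 4 genes the ratio was 0.799 and 0.955. All annotated exons of Hba-a1, by which TPM divides, come to 812 bases, more than the 768 of Hbb-bs, although its mature mRNA is shorter. Per 100-base window found in no other gene, the share of Hba-a1 among the 3 named genes was 59.2% and 63.0%. The odds ratio was 1.18 for Hba-a1 under each of these weightings it was run with and 1.19 with Hba-a2 per mature length. Each weighting was the same in both libraries, so it could hardly move the odds ratio.

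The alpha pair kept its proportions within counting error. Of the adult alpha counts Hba-a1 made up 87.6% (87.4 to 87.8) under normoxia and 86.9% (86.0 to 87.8) under hypoxia. The odds ratio was 0.944, with an interval on reads of 0.871 to 1.02 and on molecules of 0.513 to 1.74. Whether the shift of the beta pair differs from that of the alpha pair was not tested. For each count of Hba-a2 there were 7.05 of Hba-a1 in normoxia and 6.66 in hypoxia, although the mRNAs are so alike.

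**Figure D3:**
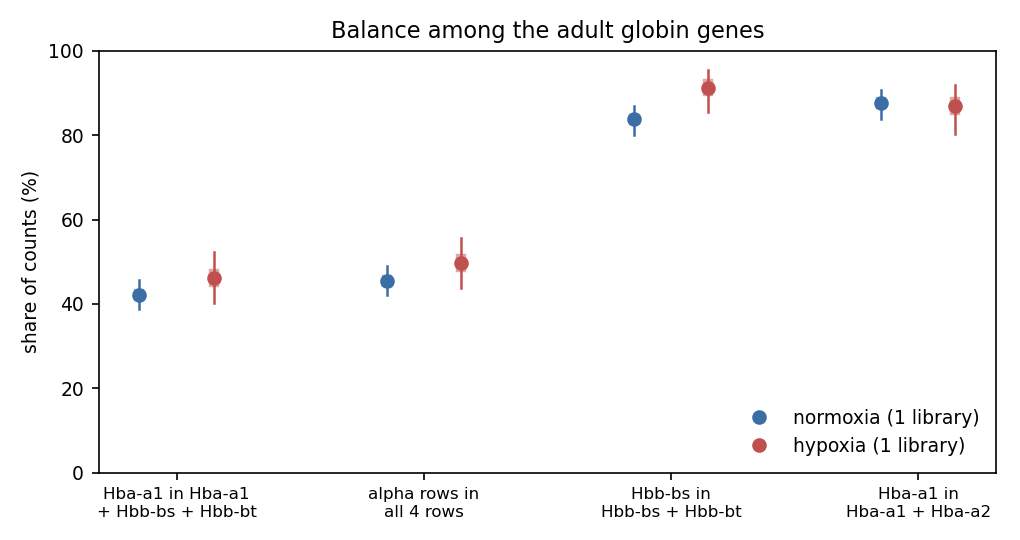
Share of counts (percent, vertical axis) of the first-named gene within each set, in normoxia (blue) and hypoxia (red), 1 library each. Thick bars are 95% intervals on reads and thin lines on estimated molecules. The Hbb-bs share rises from 83.7% to 91.3%, the alpha shares from 42.2% to 46.2% and from 45.5% to 49.7%, and the Hba-a1 share of alpha counts stands at 87.6% and 86.9%.

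Other red cell genes were counted beside the globins, from lists of haem synthesis, membrane, enzyme and regulator genes. Of 72 such genes, 61 had at least 50 counts. With TMM 46 were called lower in hypoxia, 3 higher and 12 neither, against the 75.7% and 11.9% of all genes. On total counts it was 40, 5 and 16, against 71.5% lower and 16.1% higher of all genes. The normoxia library held 65 of them, of which 34 (52.3%) were at 0 in hypoxia, beside 3482 of 4640 (75.0%) over all genes found in normoxia. Of the 30 with counts in both libraries and at least 50 in all, TMM called 15 lower and 3 higher and total counts 9 and 5, beside the 27.9% and 24.9%, and 15.1% and 41.1%, of all such genes. The median log2 ratio of these 30 was −0.98 with TMM, against −0.10 over all 1108 such genes. On total counts it was −0.18, against 0.70. Over the 61 measured genes the median with TMM was −5.50, against −5.25 over all 4215 genes. These last 2 medians depend on the prior count given to zeros.

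Haem synthesis supplies the group that each globin chain holds. Of 15 measured genes of this list, 11 were called lower with TMM, 1 higher and 3 neither. Of all genes 75.7% were called lower and 11.9% higher. Alas2, the rate-limiting enzyme of haem synthesis in red cells, had 5450 counts in normoxia and 97 in hypoxia, 3.75-fold lower on total counts. Those counts stand for 23.8 and 2.49 estimated molecules, and no interval on molecules is given for the ratio. Slc25a37, the mitochondrial iron importer, had 3193 and 131 counts, a ratio of 0.614. The decarboxylase gene Urod had 1813 and 0 counts, at least 1.04-fold lower on total counts with 3 estimated molecules as the floor. The mitochondrial carrier gene Slc25a39 had 1290 and 59, a ratio of 0.685, and Glrx5, which serves iron-sulphur cluster assembly, had 1106 and 231, a ratio of 3.13. The transferrin receptor gene Tfrc, which other dividing cells also express, was the gene called higher with TMM, with 517 and 132 counts. It rested on 2.26 and 3.38 estimated molecules. On total counts 9 genes of this list were called lower and 2 higher, Tfrc and Glrx5, against 71.5% and 16.1% of all genes. The alpha chain chaperone gene Ahsp was not analysed here.

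The membrane list held fewer counts beside the globins in hypoxia. Of 13 genes measured, TMM called 12 lower, none higher and 1 neither, against 75.7% of all genes called lower. Total counts called 11 lower and 1 higher (Dmtn, a membrane skeleton gene, with 195 and 43 counts), against 71.5% and 16.1% of all genes. Dmtn rested on 0.852 and 1.10 estimated molecules. Slc4a1, the anion exchanger known as band 3, went from 4373 counts to 0, at least 97.4-fold lower on total counts with 3 reads as the floor and at least 2.50-fold lower with 3 estimated molecules. The spectrin gene Sptb had 2456 and 0, the water channel gene Aqp1 2125 and 0, the membrane skeleton gene Epb42 1337 and 0, and the blood group gene Rhd 1403 and 1. With 3 estimated molecules as the floor, Sptb was at least 1.40-fold and Aqp1 at least 1.21-fold lower. Epb42 and Rhd, at 616 and 646 CPM in normoxia, lay below that floor of 807 CPM. Adult globins held 9.78 counts per count of the membrane list in normoxia and 46.5 in hypoxia, an odds ratio of 4.75 (4.18 to 5.43 on reads, 2.10 to 13.7 on molecules). The list rested on 86.5 and 6.15 estimated molecules. Per count of the regulator list the odds ratio was 1.49 (0.557 to 4.24 on molecules), an interval that overlaps that of the membrane list, and differences between lists were not tested.

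Enzymes and late maturation genes form the list with most counts. Of 18 measured, 12 were called lower with TMM, none higher and 6 neither, against 75.7% and 11.9% of all genes called lower and higher. The carbonic anhydrase gene Car2 had 6279 and 77 counts, 5.45-fold lower on total counts, and Bpgm, which makes the haemoglobin ligand bisphosphoglycerate, had 3723 and 97, 2.56-fold lower. The peroxiredoxin gene Prdx2 had 3217 and 89 (ratio 0.414), Mkrn1 2263 and 50 (0.331) and the mitochondrial carrier gene Ucp2 3614 and 195 (0.808). In hypoxia Car2 rested on 1.97 estimated molecules, Bpgm on 2.49, Prdx2 on 2.28, Mkrn1 on 1.28 and Ucp2 on 5. No interval on molecules is given for these ratios. The peroxidase gene Gpx1, which leukocytes also express, had 6585 and 456 counts, a ratio of 1.04. Globins per count of this list were 5.10 and 7.09, an odds ratio of 1.39 (0.960 to 2.09 on molecules), and per count of the haem synthesis list 9.37 and 12.5, an odds ratio of 1.34 (0.811 to 2.24 on molecules). Over all 4 lists the odds ratio was 1.66 (1.24 to 2.23 on molecules). By point value Hbb-bt alone stood nearer to the lists, with 0.204 and 0.167 counts per list count. Its odds ratio was 0.819 (0.741 to 0.903 on reads, 0.411 to 1.65 on molecules). This odds ratio and that of all adult globins share counts, and whether they differ was not tested.

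**Figure D4:**
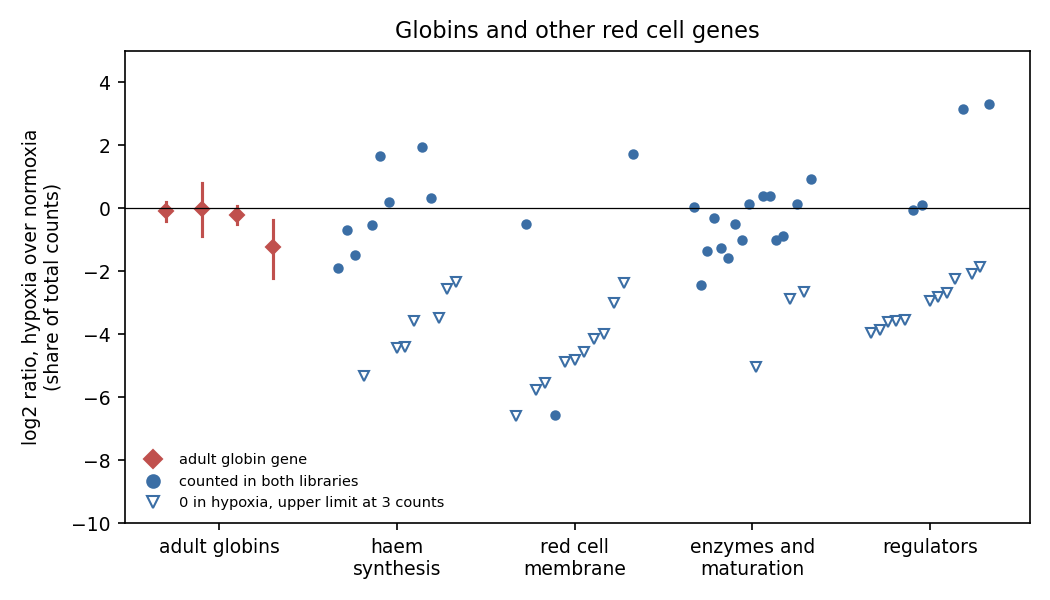
Log2 ratio of hypoxia over normoxia on total counts (vertical axis) for the adult globin genes (diamonds, from left to right Hba-a1, Hba-a2, Hbb-bs and Hbb-bt, with 95% intervals on estimated molecules) and for other red cell genes with at least 50 counts (circles). Open triangles are genes with 0 counts in hypoxia, placed at the upper limit of 3 counts, and the lowest circle is Rhd, with 1 count there. The triangles are limits on reads, unlike the globin intervals. With 3 estimated molecules as the floor (807 CPM, against 20.7 CPM for 3 reads) they would lie higher, so their distance from the globins depends on the floor. Hbb-bt lies at −1.23 and the other globins between −0.21 and −0.01. On this scale 11 of the 13 membrane genes were called lower, beside 71.5% of all 4215 genes.

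Regulators of the globin genes were scarce in both libraries. Of 15 measured, 11 were called lower with TMM, 2 higher and 2 neither, against 75.7% and 11.9% of all genes called lower and higher. Klf1, the activator of adult beta globin, had 694 and 0 counts, and the erythroid factor genes Tal1 (657 and 0), Gata1 (544 and 0) and Nfe2 (537 and 0) were alike in this. At 320 CPM in normoxia Klf1 was below the 807 CPM that 3 estimated molecules hold in hypoxia, so a difference was not detectable on molecules. The GATA1 cofactor gene Zfpm1 (201 and 120 counts) and the erythropoietin receptor gene Epor (51 and 34) were called higher. Zfpm1 rested on 0.878 and 3.08 estimated molecules and Epor on 0.223 and 0.872. These calls are on reads, and no interval on molecules is given for them. Ikzf1 (502 and 36), a lymphoid factor that also acts at the globin genes, and the cell cycle factor gene E2f2 (502 and 32) had ratios on total counts of 1.07 and 0.954.

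Macrophages take up haemoglobin and break down haem, and genes of this route were counted too. Of 13 genes measured, TMM called 7 lower, 1 higher and 5 neither, against 75.7% and 11.9% of all genes. On total counts 7 were called lower, and 4 were called higher, namely Hp, Hebp1, Cd36 and Nfe2l2. The shares over all genes were 71.5% and 16.1%. Cd163, the receptor for haptoglobin bound to haemoglobin, had 928 and 0 counts. At 427 CPM in normoxia it was below the 807 CPM that 3 estimated molecules hold in hypoxia. The ferritin chain genes Fth1 (7517 and 232 counts) and Ftl1 (6319 and 607) had ratios on total counts of 0.462 and 1.44. The haptoglobin gene Hp had 1236 and 215, a ratio of 2.60, the haem-binding protein gene Hebp1 932 and 129, a ratio of 2.07, and Lrp1, a receptor for haem bound to haemopexin, 600 and 51, a ratio of 1.27. Nfe2l2, a transcription factor of the oxidative stress response, was the gene called higher under both scalings, with 48 and 75 counts. Those counts stand for 0.210 and 1.92 estimated molecules. The list took 0.917% of counts in normoxia and 0.933% in hypoxia.

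Markers of other cell types moved between the libraries as well. Macrophage markers took 2.03% and 2.19% of counts, with 11 of 14 counted in normoxia and 2 in hypoxia. Over all genes found in normoxia, 75.0% were at 0 in hypoxia. Of the defining ones, Adgre1, Csf1r and Cd68 had 0 counts in hypoxia, and Lyz2 held 3164 of the 3170 counts there. Csf1r and Cd68, at 611 and 721 CPM in normoxia, lay below the 807 CPM that 3 estimated molecules hold in hypoxia. Adgre1, at 812 CPM, lay just above that value. Neutrophil markers took 1.71% and 9.36%, with 9 and 10 of 13 counted. Red cell markers, of which globins are a part, took 9.13% and 7.37%, with 9 and 5 of 9 counted. B cell markers came to 1086 and 0 counts, those of T and NK cells to 350 and 0, platelets to 414 and 0 (the integrin gene Itgb3 alone), sensory neurons to 0 and 60, Schwann cells and satellite glia to 313 and 190, and endothelial cells to 0 in both. The part of these cell types, of the difference in depth and of the few molecules in the differences between globins was not tested.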

How the data were processed

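Per the labels' protocols, RNA came from a TRIzol extraction and libraries from an NEBNext Ultra II kit. The submitters' processing notes name STAR 2.5.2b, bcl2fastq 2.20, Subread 1.5.2 and its counter featureCounts. Build, annotation, strand setting and the treatment of reads with several alignments are not stated. For each gene the authors deposited raw counts, which are whole numbers, and TPM values. TPM lengths lay within 1% of the GENCODE M21 exon length for 2948 of 3608 genes with at least 100 normoxia counts.

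Shares have exact Clopper-Pearson 95% intervals, ratios exact conditional binomial intervals, and odds ratios exact conditional intervals with molecules rounded to whole numbers. Point odds ratios come from the counts. TMM factors from edgeR 4.0.16 in R 4.3.3 were 0.757 for normoxia and 1.32 for hypoxia. Log2 ratios of list genes used a prior count of 0.5. The calling rule was also run on simulated counts for genes counted in both libraries. That simulation held counting error on reads only, without repeated reads of a molecule. It thus cannot show how reliable the calls are in these libraries. Windows were taken from transcripts cut to the RefSeq start. Promoters are RefSeq's.

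The members, lists and tests were chosen with earlier results of these data known. Named genes are all rows of the globin clusters, up to 6 members with at least 200 counts of each list with those called higher, the nearest 5 genes by ratio and each library's 5 most counted genes. The nearest 5 exclude predicted genes. Of the genes this rule takes, 2 are not reported here. Markers of other cells are given mostly by list, and mt-Co1 and S100a9 were named after their values were seen. Alternatives were other scalings, prior counts, count minimums, TPM, unique windows, estimated molecules and more globin rows.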

Additional observations from a re-analysis of the deposited data

How the results depend on the processing

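In these libraries 1 sample stands for each group, so no replicate could be left out. No paired analysis was possible because each group has 1 library. The shift in beta-s to beta-t balance was 1.03 (log2) under every weighting, which multiplies both libraries alike, and that in alpha to beta balance ran from 0.23 to 0.26, intervals on estimated molecules apart. The levels of the shares moved more. The alpha share in normoxia and hypoxia was 40.5% and 44.7% by TPM. It was 74.4% and 77.3% per unique 50-base window, 59.2% and 63.0% per 100-base window, and 54.1% and 58.1% per 150-base window. It was 45.6% and 49.7% with all other globin rows, and 45.5% and 49.7% with Hba-a2 alone added. With Hba-a2 it was 48.7% and 53.0% per mature length and 44.4% and 48.8% by TPM (the 3 settings with Hba-a2 alone added, and beta-s per mature length, were chosen after seeing the data). The beta-s share in normoxia was 82.5% by TPM. The 3 genes took 19.8% and 12.9% of TPM.

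Scaling moved the log2 ratios without turning a called direction. For total counts, the housekeeping list and total counts without globins, in this order, Hba-a1 stood at −0.10, −0.0701 and −0.11, Hba-a2 at −0.0121, 0.0133 and −0.0314, Hbb-bs at −0.21, −0.18 and −0.22, Hbb-bt at −1.23, −1.21 and −1.25, and the 3 genes summed at −0.23, −0.20 and −0.25. With TMM they were −0.90, −0.82, −1.01, −2.03 and −1.03. With DESeq2 size factors Hba-a1 was at −0.84, Hbb-bs at −0.95 and the sum at −0.98, so the 2-fold call of Hbb-bs held with TMM alone. The housekeeping factor rests on 9 genes counted in both libraries and another such list may differ. The genes called lower numbered 3192, or 2086 at a minimum of 200 counts. Those called higher numbered 500, or 153 at 200 counts, 1059 at 10 counts and 1147 with no minimum. Of 61 measured red cell list genes, those called higher numbered 3 with TMM and 5 on total counts, beside 11.9% and 16.1% of all genes. Depth limits Hbb-bt most, at 12.5 estimated molecules in hypoxia.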
